A study of Mus musculus with 2 samples.

Results

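The PI3K pathway genes described here are 7 of the 31053 genes in the count tables. Inpp4b, Inppl1, Phlda3 and Frk are brakes on the pathway and were earlier reported as targets of the microRNA miR-205, and Pik3ca, Pik3r1 and Akt1 encode its core kinases and their regulatory subunit. They were chosen by gene symbol, and each symbol matched 1 row. Single cells from the back skin of 2 mice were compared, 1 control and 1 in which miR-205 could be induced, and both carried a K14-H2BGFP allele, with the strain given as C57BL/6. In the inducible mouse a Krt14-rtTA activator, active in keratin 14-expressing epithelium, switches on a pTRE2-miR-205 transgene that was made by injection into FVB mice. The inducer, doxycycline in the chow, lasted 4 days (P49 to P53). The protocol says that both mice ate it, while the sample label calls the control untreated. The pair was matched for sex and run on the same chip, and sorted cells were mixed at 3 parts epidermis, 5 parts follicle and 2 parts dermis, so the sort sets the shares of these compartments. Which transgene the control lacked is not stated in the labels or methods read here.

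PI3K adds a phosphate to a membrane lipid, and the product recruits AKT, which then promotes growth and survival and keeps FOXO transcription factors out of the nucleus. INPP4B and SHIP2, the product of Inppl1, are lipid phosphatases that remove phosphates from PI3K products at different positions. PHLDA3 is a pleckstrin homology domain protein that competes with AKT for membrane lipid, and FRK is a Src-related tyrosine kinase that restrains growth signalling. In the hair follicle, stem cells of the bulge and progenitors of the hair germ rest through telogen and feed new hair growth.

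A microRNA binds messenger RNAs mainly through its seed, bases 2 to 8. The mature strand of miR-205 from RefSeq lies at chr1:193507503-193507524 on the minus strand of GRCm38.p6 and is shown first because every match below pairs with its seed, in capitals. The 3′ UTRs of all 7 genes were searched on the transcript strand for ATGAAGG, the complement of the seed, and for TGAAGGA, the complement of bases 2 to 7 followed by A. The strongest match of each gene that has either is shown in capitals with its flanks, read from build NCBIM37.
miR-205-5p: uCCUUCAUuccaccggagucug
Inppl1: ccatccgtccggaaATGAAGGAa
Frk: atcaggctgttattATGAAGGAa
Pik3ca: tcttctaggttagcTGAAGGAa
Inpp4b: actcatccttacctTGAAGGAg

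The Inppl1 and Frk matches held both 7-base strings as 1 overlapping run of 8. The Inppl1 stretch lies at chr7:108971415-108971437 on the minus strand, in a 3′ UTR of 680 bases, and the Frk stretch at chr10:34328790-34328812 on the plus strand, in a 3′ UTR of 2655 bases. Among all 18988 genes, 10.6% held ATGAAGG in their longest annotated 3′ UTR. For UTRs within 20% of the length of the Inppl1 and Frk UTRs, the shares were 6.75% and 21.3%. The Pik3ca stretch, at chr3:32366785-32366806 on the plus strand, sits in a 3′ UTR of 5655 bases and holds TGAAGGA alone. Of UTRs of similar length, 63.1% held one or the other string.

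Inpp4b needed more care. Its longest annotated 3′ UTR, of 2520 bases, belongs to a transcript with a coding length of only 198 bases, and the stretch at chr8:84556981-84557002 on the plus strand is a coding exon in the longest coding transcript. The 3′ UTR of that longest coding transcript, of 1165 bases, held neither string. Neither string was in the annotated 3′ UTRs of Phlda3 (727 bases), Pik3r1 (4119 bases) or Akt1 (877 bases). These matches are letters in annotated windows only.

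The control library held 55465594 unique molecular identifiers (UMIs) and the induced library 49733560, and 3936 and 3628 cells were kept, with medians of 12198.5 and 11752.5 UMIs per cell. The libraries shared 11 cell barcodes, 5 of them among kept cells. Clustering gave 25 clusters, which formed 23 populations once clusters of the same name were joined, and 20 of these had at least 20 cells in each library and were compared. Of these, 14 were epithelial by their Krt5 and Krt14 level. The population that matched hair follicle stem cells (HF-SC-like), with Cd34, Krt24, Postn, Lhx2 and Lgr5 raised, held 363 control and 353 induced cells in clusters 3 and 17. The hair germ had no cluster of its own by the naming rule. Cluster 15, with 45 control and 101 induced cells and with Lgr5, Cdh3, Lef1, Gli1 and Msx2 raised, had the highest mean of the hair germ markers and is described below under its number. Cluster 11, with Lgr5, Lef1 and Gli1 raised, came next, with a mean log2 fold of 1.76 against 2.00 in cluster 15. With coarser clusters (resolution 0.4) clusters 11 and 15 fell into the same cluster. Mature miR-205 is not measured by this assay, so the induction itself was not checked here.

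Levels are CPM, the gene's UMIs scaled to 1000000 UMIs of the population in that library, and ratios are log2 of induced over control, given only where a gene had 20 UMIs or more in the pair of libraries. Bracketed ranges are exact 95% intervals that cover counting error only. With 1 library per group no difference has a replicate check, no test of the treatment was possible, and populations of 1 library are not independent samples. A gene was called higher or lower when it passed 1.5-fold. In HF-SC-like cells 13.3% of 9600 genes were called higher and 6.43% lower, with a median log2 ratio over all genes of 0.09. Among the members with enough UMIs there, 6 of 7, Inpp4b was called lower and Pik3r1 higher. In cluster 15, 14.9% of 6469 genes were called higher and 13.4% lower. There 6 of 7 members could be compared, Pik3r1 and Akt1 were called higher, and none was called lower. In cluster 11, 10.7% of 7948 genes were called higher and 10.7% lower. There 5 of 7 members could be compared, Inpp4b was called lower, at 18.9 and 8.80 CPM, and none was called higher.

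Of the 4 brakes among the members, Inpp4b had the largest difference in HF-SC-like cells, where Frk had too few UMIs for a ratio. Its level was 33.6 CPM (27.9 to 40.2) in the control library and 17.2 CPM (13.1 to 22.1) in the induced library, from 120 and 60 UMIs, and the 2 intervals did not overlap. The log2 ratio was -0.97 (-1.44 to -0.51). The 5 cells with most Inpp4b UMIs held 10.0% of the control UMIs and 16.7% of the induced UMIs, so the level rested on many cells in both libraries. Cluster 3 alone gave 32.8 and 17.1 CPM, with a log2 ratio of -0.93 (-1.45 to -0.45). Cluster 17 gave 46.2 and 17.4 CPM from 10 and 9 UMIs, too few for a ratio.

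The same direction held in the other epithelial populations. Inpp4b had a lower level in the induced library in 13 of the 13 epithelial populations with enough UMIs, from -0.31 in cluster 13 to -1.77 in cluster 12, with a median log2 ratio of -0.96. In comparison, 1.9% of the 5577 genes measured in all these populations were below 0 in every one. The interval lay below 0 in 11 populations, as in at least 11 for 0.789% of genes. The ratio passed 1.5-fold in 9 populations, as in at least 9 for 0.287% of genes. In the basal interfollicular epidermis-like (IFE basal-like) cells the levels were 24.8 and 19.0 CPM, a log2 ratio of -0.38 (-0.71 to -0.06). In IFE suprabasal-like cells they were 10.6 and 4.94 CPM, or -1.09 (-1.76 to -0.48). Inner bulge-like cells, the keratin 6-positive layer inside the stem cell layer, had 21.8 and 10.9 CPM, or -1.001 (-1.78 to -0.21). The difference in size between these populations was not tested.

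In cluster 15 the difference in Inpp4b was not detectable at this depth. Its 8 control and 15 induced UMIs gave 19.6 and 13.6 CPM, a log2 ratio of -0.57 (-1.86 to 0.91). The lower direction also depended on 1 cell filter. With cells under 5% mitochondrial UMIs only, 8 of the 10 epithelial populations that still had enough UMIs were below 0, while cluster 2 moved from -0.52 to 0.15 and cluster 13 also lay above 0.

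Outside the epithelium no population reached 20 Inpp4b UMIs, so none has a ratio. Melanocyte-like cells had 22.5 CPM (2.72 to 81.2) and 28.0 CPM (9.09 to 65.3) from only 2 and 5 UMIs, a mean of 25.2 CPM that was the third highest. Dermal papilla-like cells, the mesenchymal signalling centre of the follicle, held 1 control UMI and 0 induced UMIs. A count of 0 was taken to allow up to 3 UMIs, here 2.41 CPM, which is not the upper end of the exact interval. Dermal fibroblast-like cells had 5.45 and 3.73 CPM from 8 and 7 UMIs, and antigen-presenting-like cells 14.01 and 20.04 CPM from 7 and 10 UMIs. Ranked by the mean of both libraries, Inpp4b was highest in cluster 13 and HF-SC-like cells, at 27.4 and 25.4 CPM, and lowest in dermal papilla-like cells, at 0.755 CPM. The library values of every population interleaved with those of the next in this order, so no neighbours were separated.

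Inppl1, which encodes the 5-phosphatase SHIP2 and carries the 8-base match shown above, was measured thinly everywhere. All kept cells together held 191 control and 204 induced UMIs, or 3.78 and 4.497 CPM, a log2 ratio of 0.25 (-0.04 to 0.54). HF-SC-like cells had 4.49 and 6.29 CPM from 16 and 22 UMIs, a log2 ratio of 0.48 (-0.51 to 1.51). Cluster 15 had the highest level of the epithelial populations, 22.1 CPM (10.1 to 41.9) in the control library and 16.3 CPM (9.65 to 25.7) in the induced library, or -0.48 (-1.67 to 0.90). Of the 11 populations with a ratio, 5 were above 0 and 6 below, and every interval included 0. Differences of the size seen for Inpp4b in HF-SC-like cells lay inside the Inppl1 interval of cluster 15 but outside that of HF-SC-like cells themselves.

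Phlda3 was highest in HF-SC-like cells, inner bulge-like cells and clusters 7, 11 and 15. The control library had 235 CPM in HF-SC-like cells, 223 CPM in cluster 15, 206 CPM in cluster 7, 200.2 CPM in cluster 11 and 193 CPM in inner bulge-like cells. The epidermal populations lay lower, with 50.6 CPM in IFE basal-like and 50.5 CPM in IFE suprabasal-like cells, and sebaceous gland-like cells had 9.60 CPM. T cell-like cells had 0 UMIs in either library. In the order of mean levels the library values of cluster 7, HF-SC-like cells and cluster 15 interleaved, and those of cluster 15 lay above those of inner bulge-like cells, though with overlapping counting intervals.

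Between libraries Phlda3 had no single direction. HF-SC-like cells had 235 CPM (839 UMIs) and 217 CPM (760 UMIs), a log2 ratio of -0.11 (-0.26 to 0.03), and cluster 15 had 223 and 205.4 CPM, or -0.13 (-0.48 to 0.25). Both intervals left out a 1.5-fold difference in either direction. Phlda3 was below 0 with an interval that left out 0 in cluster 11, led by Tagln, Acta2 and Procr, at 200.2 and 146 CPM, or -0.45 (-0.69 to -0.21). It was above 0 in that sense in 5 of 15 populations, as in at least 5 for 9.22% of genes. Cluster 7, led by Pthlh, Bdnf and Sema3e, had 206 and 266 CPM, or 0.36 (0.16 to 0.58). IFE suprabasal-like cells had 50.5 and 69.3 CPM, or 0.45 (0.25 to 0.66), and dermal fibroblast-like cells, which are not keratin 14 epithelium, had 29.3 and 46.4 CPM, or 0.65 (0.12 to 1.23). Of the 15 ratios only the fibroblast value passed 1.5-fold, where 13.7% of genes were called higher.

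Frk was highest in upper follicle and epidermal populations. In the control library it stood at 27.4 CPM in upper hair follicle-like (upper HF-like) cells, 16.7 CPM in cluster 1 and 14.7 CPM in IFE basal-like cells. Levels were low in HF-SC-like and inner bulge-like cells, with 3.36 CPM in HF-SC-like cells from 12 UMIs and 2.71 CPM in cluster 11 from 5 UMIs. Inner bulge-like cells held 0 UMIs, which at the limit of 3 UMIs allows up to 2.33 CPM. Antigen-presenting-like cells had 26.0 CPM from 13 UMIs.

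Where Frk could be compared, most ratios were below 0. IFE basal-like cells had 14.7 CPM (12.4 to 17.3) in the control library and 9.42 CPM (7.15 to 12.2) in the induced library, a log2 ratio of -0.63 (-1.10 to -0.19), past 1.5-fold where 5.18% of genes were called lower. Upper HF-like cells had 27.4 and 18.7 CPM, or -0.55 (-1.03 to -0.08). Of 8 epithelial populations with a ratio, 7 were below 0, with a median of -0.33, and 13% of genes measured in those populations were below 0 in at least 7. The interval left out 0 in 2, as in at least 2 for 19.2% of genes, and 1 passed 1.5-fold, as in at least 1 for 23.3%. Outside the epithelium only antigen-presenting-like cells had enough Frk UMIs for a ratio. It was -0.85, also past 1.5-fold lower, with an interval that included 0. Cluster 1, an unnamed epithelial cluster, lay at 16.7 and 16.2 CPM, or -0.04 (-0.51 to 0.41), and its difference from the other populations was not tested. In HF-SC-like cells Frk held 12 and 7 UMIs, and in cluster 15 it held 2 and 15 UMIs, 4.91 CPM (0.595 to 17.7) and 13.6 CPM (7.60 to 22.4). Neither reached the 20 UMIs set for a ratio.

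**Figure D1:**
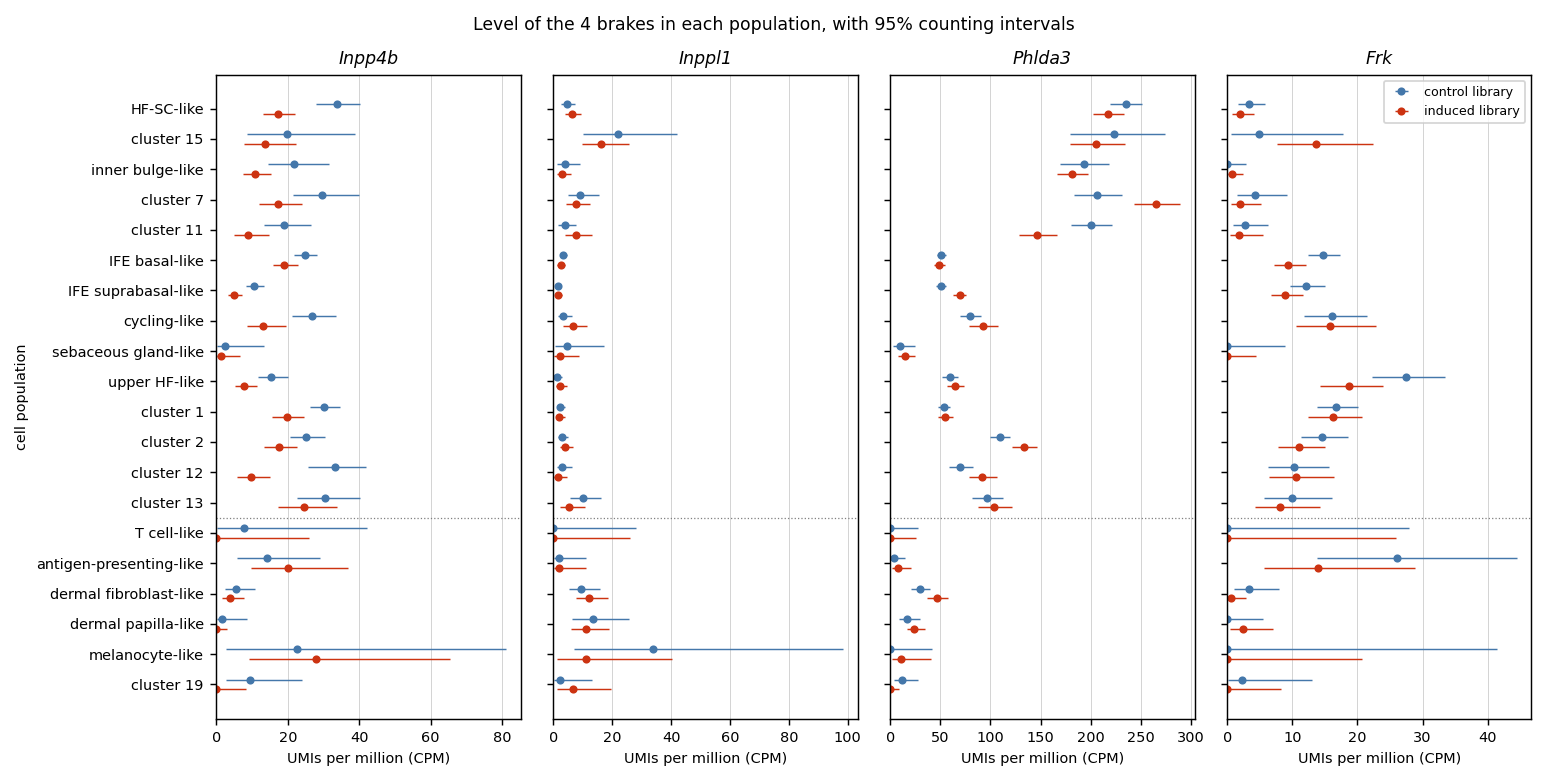
Level of Inpp4b, Inppl1, Phlda3 and Frk (x axis, CPM) in each of 20 populations (y axis, epithelial above the dotted line), as 1 point per library with exact 95% counting intervals, control in blue and induced in red. Inpp4b points of the induced library sit left of the control points in the 13 epithelial populations with a ratio. Phlda3 is highest in HF-SC-like cells, inner bulge-like cells and clusters 7, 11 and 15, and Frk is highest in upper HF-like and antigen-presenting-like cells.

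**Figure D2:**
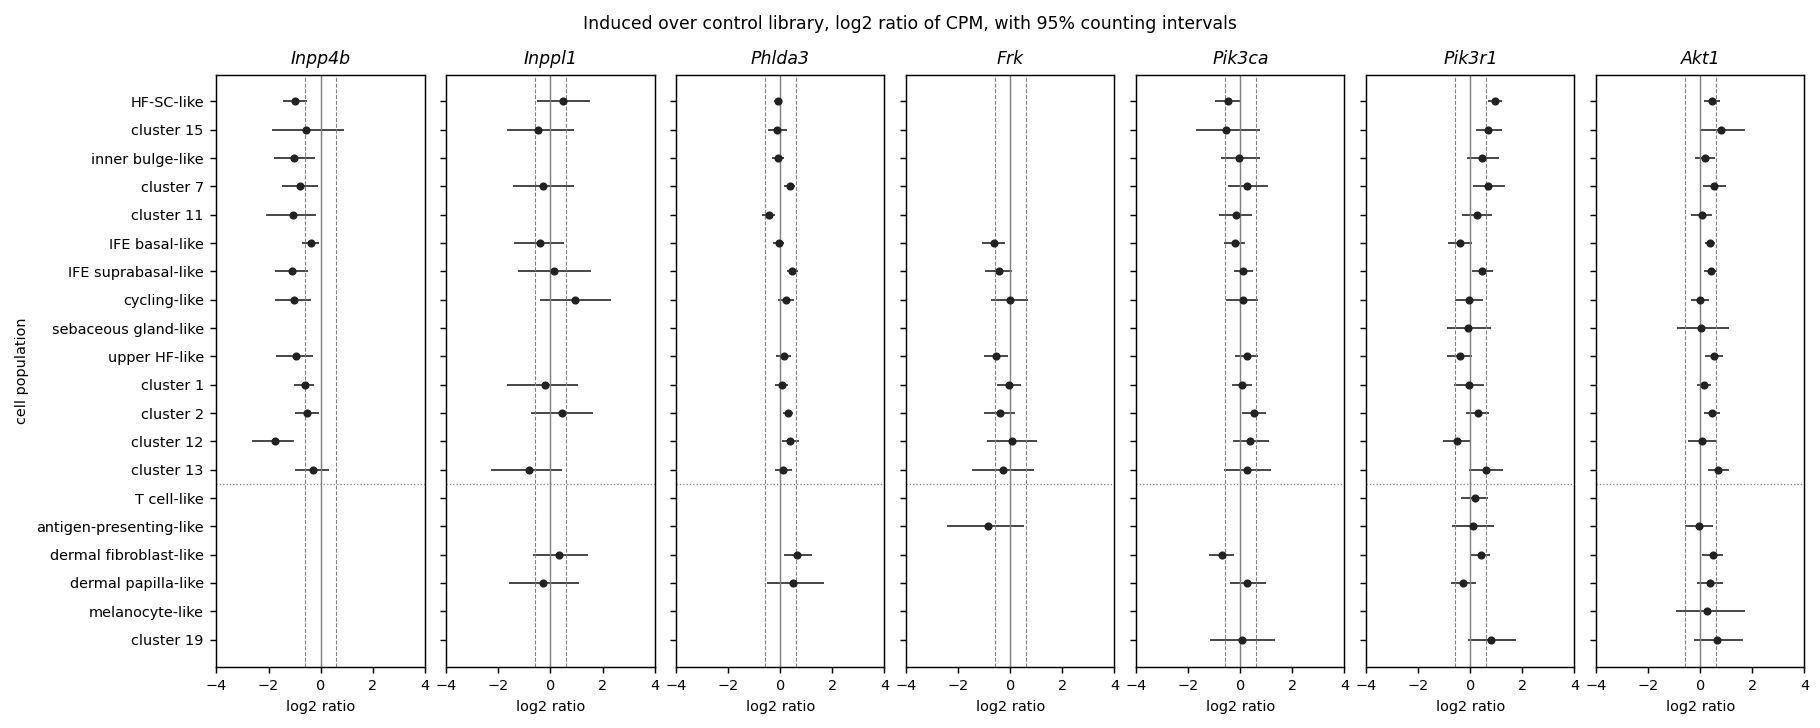
Log2 ratio of CPM, induced over control (x axis), for the 7 genes in each population with at least 20 UMIs (y axis, epithelial above the dotted line), with 95% counting intervals. Dashed lines mark 1.5-fold. All 13 Inpp4b points lie below 0, and 17 of 19 Akt1 points lie above 0.

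Pik3ca, which encodes the catalytic subunit p110 alpha, had higher levels in dermal fibroblast-like and dermal papilla-like cells, at mean levels of 48.7 and 43.3 CPM, than in the epithelial populations, which lay between 8.40 and 28.7 CPM over both libraries. Melanocyte-like cells had 44.9 CPM (12.2 to 115) and 67.2 CPM (34.7 to 117) from 4 and 12 UMIs, and the control interval reached epithelial levels. In HF-SC-like cells it had 23.3 CPM (83 UMIs) and 16.9 CPM (59 UMIs), a log2 ratio of -0.46 (-0.97 to 0.04), and in cluster 3 alone -0.62 (-1.19 to -0.08). Cluster 15 had 24.5 and 17.2 CPM, or -0.55 (-1.69 to 0.75). The intervals left out 0 in 2 of 16 populations, 1 on each side of 0. Of the 3303 genes measured in all 16, 58.9% had an interval above 0 in at least 1. Dermal fibroblast-like cells had 60.6 and 36.8 CPM, or -0.72 (-1.196 to -0.25), where 6.5% of genes were called lower, and cluster 2, led by Serpina3g, Cyp27a1 and Vsnl1, had 16.8 and 24.3 CPM, or 0.52 (0.06 to 0.99).

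Pik3r1 encodes the regulatory subunit p85 alpha, which stabilises the catalytic subunit and holds it inactive until a receptor is engaged. Reads at the 3′ end cannot separate it from the shorter products of the same gene. Its level was highest in T cell-like cells, at 440.2 and 492 CPM, and next in cluster 15, at 113 and 184 CPM. IFE basal-like cells and cluster 1 lay lowest, at 12.6 and 10.7 CPM in the control library. Both library values of T cell-like cells, and both of cluster 15, lay above those of the next population in the order of mean levels. Cluster 18, with 16 control cells too small to compare, had 298 and 509 CPM.

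In HF-SC-like cells Pik3r1 had 49.1 CPM (42.1 to 56.9) in the control library and 94.1 CPM (84.2 to 105) in the induced library, from 175 and 329 UMIs. The log2 ratio was 0.94 (0.67 to 1.21). The 5 cells with most UMIs held 13.1% and 10.9% of them. The HF-SC-like clusters had different ratios, and the difference between them was not tested. In cluster 3 the levels were 38.8 and 73.9 CPM, a log2 ratio of 0.93 (0.61 to 1.25), and in cluster 17 they were 208 and 210.3 CPM, or 0.0067 (-0.50 to 0.55). Cluster 17 made up 30 of the 363 control and 65 of the 353 induced HF-SC-like cells. Its top genes were Shisa2, Tbx1, Krt24 and Sfrp1.

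Cluster 15 had a Pik3r1 log2 ratio of 0.69 (0.23 to 1.197), with 47.8% of its 46 control UMIs in 5 cells. Cluster 7 had 23.2 and 37.9 CPM, or 0.69 (0.10 to 1.34). In the epidermis, IFE basal-like cells had -0.39 (-0.87 to 0.06) and IFE suprabasal-like cells 0.45 (0.05 to 0.86), and upper HF-like cells had -0.41 (-0.90 to 0.07). Over the 14 epithelial populations 8 were above 0 and 6 below, and 46% of genes were above 0 in at least 8. The interval lay above 0 in 4, as in at least 4 for 13.1% of genes. The ratio was past 1.5-fold higher in 4, as in at least 4 for 4.26% of genes. Because T cells hold the most Pik3r1, their markers were counted where the ratio was high. The 6 T cell markers summed to 4 control and 5 induced UMIs in HF-SC-like cells and to 0 and 1 in cluster 15. Immediate early genes, which respond to dissociation, moved in the same direction as Pik3r1, with a sum over 8 genes of 15847 and 18340 CPM in HF-SC-like cells and 19530 and 23198 CPM in cluster 15. The part of T cell UMIs or of immediate early genes in the result was not tested.

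Akt1, the kinase recruited by the PI3K product, had a higher level in the induced library in more populations than the other 6 genes. HF-SC-like cells had 45.7 CPM (39.0 to 53.3) and 62.6 CPM (54.6 to 71.5), from 163 and 219 UMIs, and the intervals did not overlap. The log2 ratio was 0.45 (0.16 to 0.76). Cluster 15 had 36.8 and 65.1 CPM from 15 and 72 UMIs, or 0.79 (0.01 to 1.73), called higher. IFE basal-like cells had 57.3 and 74.0 CPM from 566 and 456 UMIs, or 0.37 (0.19 to 0.55).

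Akt1 lay above 0 in 17 of 19 populations, with a median of 0.37, where 5.12% of the 1622 genes measured in all of them were above 0 in at least 17. The interval left out 0 in 9 of them, as in at least 9 for 9% of genes. It passed 1.5-fold in 3, clusters 13, 15 and 19, as in at least 3 for 5.86%. Among the 14 epithelial populations 13 were above 0 with a median of 0.38, and with coarser clusters (resolution 0.4) 11 of 14 were, with a median of 0.21. The direction was not restricted to keratin 14 epithelium, since dermal fibroblast-like cells had 57.2 and 79.4 CPM, or 0.47 (0.08 to 0.88), and dermal papilla-like cells 74.0 and 95.5 CPM, or 0.36 (-0.12 to 0.88). Cycling-like cells had 66.8 and 66.2 CPM, or -0.01 (-0.35 to 0.32). The highest level was in antigen-presenting-like cells, at 126 and 122 CPM, with both library values above those of the next population in the order.

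**Figure D3:**
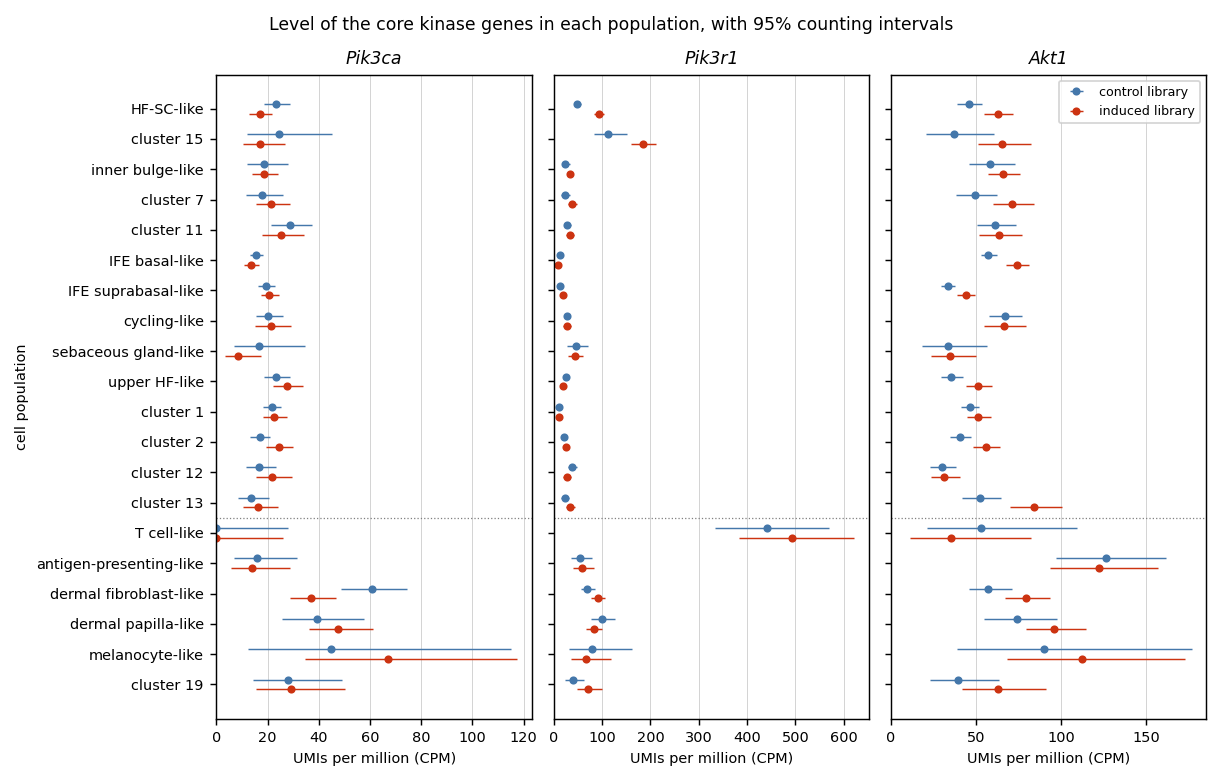
Level of Pik3ca, Pik3r1 and Akt1 (x axis, CPM) in each of 20 populations (y axis, epithelial above the dotted line), as 1 point per library with exact 95% counting intervals, control in blue and induced in red. Pik3r1 reaches 440.2 and 492 CPM in T cell-like cells and 113 and 184 CPM in cluster 15, while Akt1 points of the induced library sit right of the control points in 17 of the 19 populations with a ratio.

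Summed over all kept cells, where 15.3% of genes were called higher and 2.89% lower, Inpp4b had a log2 ratio of -0.79 (-0.94 to -0.65) and Frk -0.57 (-0.76 to -0.39). Pik3r1 had 0.70 (0.60 to 0.80), Akt1 0.34 (0.26 to 0.42) and Phlda3 0.22 (0.16 to 0.28). Such sums also carry the different make-up of the libraries. Combined within populations instead, Inpp4b stayed at -0.73 and Akt1 at 0.34, whereas Pik3r1 came to 0.29, Frk to -0.37 and Phlda3 to 0.09. Inner bulge-like cells were 4.32% of the control and 10.5% of the induced library, and IFE basal-like cells 15.04% and 9.79%. In bulk sums fewer cells of a type and less RNA per cell cannot be told apart.

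Across the 20 populations the members did not share 1 pattern of level. Pearson's r of log2(CPM + 1), given as a description over populations that share 2 libraries, was 0.71 between Inppl1 and Pik3ca, 0.51 between Inpp4b and Phlda3 and -0.54 between Frk and Pik3r1. Over 10801 genes, the patterns closest to Inpp4b were those of Cdh3, the P-cadherin gene, at 0.85, and of Rbbp8 and Adgrg6, at 0.84 and 0.83. Closest to Phlda3 were Nxn and Zfyve9 at 0.93 and Tacc2 at 0.92. Pik3r1 was closest to Cdkn1b, which encodes the cell cycle inhibitor p27, at 0.95, then to Prkacb and Sesn3 at 0.89. Akt1 was closest to Tgfbr1, a TGF-beta receptor gene, at 0.92, Ube2e3 at 0.89 and Tbc1d16 at 0.88, though within single libraries Tbc1d16 had 0.36 in the control and 0.81 in the induced library. The nearest patterns to Pik3ca were Mier3 at 0.95 and Sbf2 and Cd81 at 0.94. For Inppl1 they were 2810001G20Rik at 0.94, Dennd1a at 0.92 and Tmem55a at 0.91, and for Frk Zfp597 at 0.84 and Sult5a1 and Trmt12 at 0.82.

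A wider list of 100 PI3K pathway genes was read in the same way. In HF-SC-like cells 83 were measured, 10 (12.0%) were called higher and 8 (9.64%) lower, and the median log2 ratio was 0.06. Over all genes there, 13.3% were called higher and 6.43% lower with a median of 0.09, so the list as a whole lay near the background, and the role counts that follow rest on few genes each. Of the 7 measured lipid phosphatase brakes other than the members, none was higher and 1, Synj2, a synaptojanin phosphatase named here after its value was seen, was lower, with 5.89 and 2.57 CPM from 21 and 9 UMIs. Of 21 protein brakes, 3 were higher and 2 lower. Of 16 receptors and adaptors 1 was higher and 2 lower, of 5 further PI3K subunits 2 were higher, and of 14 AKT and mTOR genes 2 were lower. Of 7 AKT substrates 1 was higher. The 13 FOXO target genes had 3 higher and 1 lower, 11 above 0, and a median of 0.43. Of all genes in HF-SC-like cells, 59.4% were above 0.

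In cluster 15, where 66 of the 100 were measured, 11 (16.7%) were called higher and 8 (12.1%) lower, near the 14.9% and 13.4% of all genes, with a median of 0.11. The 12 measured FOXO target genes had 5 higher, 1 lower and a median of 0.47, and the 11 AKT and mTOR genes had 0 higher, 4 lower and a median of -0.43. The median over all genes tested was -0.01. Cluster 11 had 4 of 13 FOXO target genes higher and 1 lower, with a median of 0.07. Its 13 AKT and mTOR genes had 0 higher and 1 lower, with a median of -0.06. Higher FOXO target genes were not limited to the follicle. IFE basal-like cells had 6 of 13 higher and 1 lower, and cycling-like cells 5 of 13 higher and 2 lower. In cluster 1, 0 of 13 were higher and 2 lower. Of the pathway genes measured in HF-SC-like cells, 11 had ATGAAGG in their longest annotated 3′ UTR, with a median of 0.10 against 0.06 for the 72 without it. In cluster 15 the order was the other way, with -0.25 for the 8 with it and 0.16 for the 58 without it. Over all genes these medians were 0.03 and 0.10 in HF-SC-like cells and -0.098 and 0.00089 in cluster 15.

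Among FOXO targets, Txnip, which encodes an inhibitor of glucose uptake and thioredoxin, had 64.2 and 147 CPM in HF-SC-like cells, a log2 ratio of 1.19 (0.97 to 1.43), and 133 and 395 CPM in cluster 15, or 1.56 (1.16 to 2.01). It was above 0 in 13 of 14 epithelial populations. Cdkn1b had 33.9 and 54.3 CPM in HF-SC-like cells, or 0.68 (0.34 to 1.02), and 63.8 and 103 CPM in cluster 15, or 0.67 (0.07 to 1.37). In cluster 17 alone Cdkn1b had 97.1 and 86.8 CPM from 21 and 45 UMIs, or -0.18 (-0.94 to 0.66). Bcl2l11, the gene of the pro-apoptotic protein BIM, had 11.8 and 18.9 CPM in HF-SC-like cells, or 0.67 (0.10 to 1.28). Gadd45a, a stress gene, went the other way there, with 103 and 53.8 CPM, or -0.94 (-1.201 to -0.68). Of the epithelial populations with a ratio, Cdkn1b was above 0 in 10 of 14, Bcl2l11 in 11 of 12 and Gadd45a in 3 of 14. The named pathway genes were picked for passing 1.5-fold in HF-SC-like cells or cluster 15, which are among the populations counted here and below. The share of all genes with such counts was not computed.

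Among brakes that are not members, Ddit4, which encodes the mTOR inhibitor REDD1, had 4.49 and 16.9 CPM in HF-SC-like cells, or 1.88 (1.10 to 2.81), but 5 cells held 66.1% of the induced UMIs. In cluster 15 it had 39.3 and 121 CPM, or 1.59 (0.87 to 2.47), with 68.8% of the 16 control UMIs in 5 cells. Over 17 populations Ddit4 was above 0 in 8 and below 0 in 9, with 5 intervals on each side, and inner bulge-like cells had -1.70 (-3.13 to -0.38). Ppp2cb, a catalytic subunit of the phosphatase PP2A, had 9.25 and 20.02 CPM in HF-SC-like cells, or 1.10 (0.50 to 1.76). Its ratio was above 0 with an interval that left out 0 in all 14 populations in which it was measured, dermal ones included, with a median of 1.63. How many of all genes reach such a count was not computed, and the 14 include HF-SC-like cells, where Ppp2cb was picked.

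Among genes that carry the signal, Rheb, the small GTPase that activates mTORC1, had 327 and 189 CPM in HF-SC-like cells from 1165 and 661 UMIs, or -0.79 (-0.93 to -0.65). It was below 0 in all 14 epithelial populations, in 13 of them with an interval that left out 0. No share of all genes was computed for this count. Eif4ebp1, a translation repressor and mTORC1 substrate, had 38.4 and 20.3 CPM, or -0.91 (-1.35 to -0.50). Irs2, an insulin receptor adaptor, had 105 and 66.4 CPM, or -0.67 (-0.91 to -0.43), and Pik3r2, the gene of p85 beta, had 13.7 and 26.6 CPM, or 0.95 (0.44 to 1.48). Over the 14 epithelial populations Eif4ebp1 was below 0 in 12, while Pik3r2 was above 0 in 9. Irs2 was above 0 in 10 of the 14, in 4 of them with an interval that left out 0. In cluster 15 Eif4ebp1, Irs2, Rheb and Pik3r2 had intervals that included 0.

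**Figure D4:**
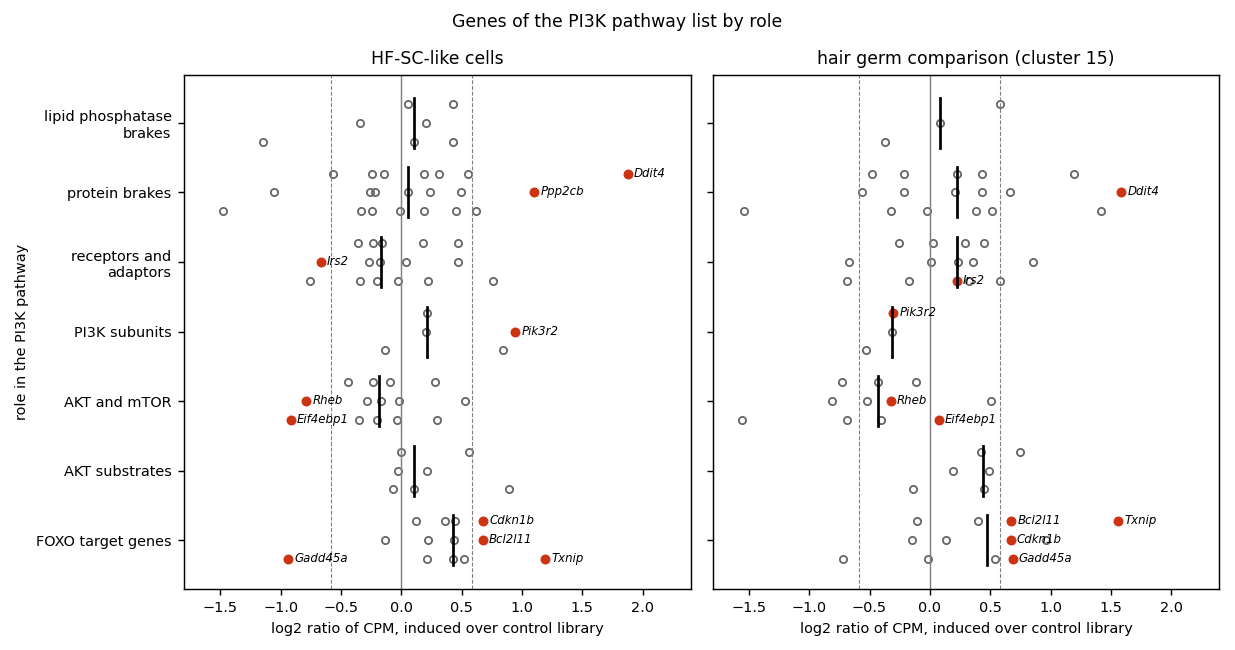
Log2 ratio of CPM, induced over control (x axis), for measured genes of the 100-gene pathway list by role (y axis), in HF-SC-like cells (left) and cluster 15 (right), 1 point per gene, spread vertically so that points do not cover each other. Black bars are medians, dashed lines mark 1.5-fold, and red points are the genes described in the text. The FOXO target genes have medians of 0.43 and 0.47, the highest of the 7 roles in both panels, with AKT substrates at 0.44 in cluster 15.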

How the data were processed

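The deposited matrices, written by Cell Ranger (3.0.1 per the file headers) with mm10 named in the processing notes, hold raw UMI counts that the authors did not normalize. Cells between 200 and 5000 detected genes with under 10% mitochondrial UMIs were kept, as in the study's methods. Doublets were not removed. Scrublet (scanpy 1.11.5) marked 4 and 5 barcodes, and these calls were not used. The 124 control and 105 induced cells with its highest scores were left out only in an alternative setting. Libraries were integrated in Seurat 5.3.0 (R 4.3.3) with 2000 variable genes, 30 dimensions and Louvain resolution 0.8. Members and pathway genes were withheld from the variable genes. Clusters were named when at least 3 listed markers were raised 2-fold in at least 10% of cells. The class also needed 1 or more markers in the top 10, with no rival class having more there. Equal classes were ordered by the number of markers raised. This rule, and the limit of 2000 CPM of Krt5 plus Krt14 for epithelial populations, were set after seeing the data. UMIs of a population were added up within each library, and ratios used a pseudocount of 0.5 UMIs with Poisson and conditional binomial 95% intervals (scipy 1.17.1). The ratio code was also run on counts drawn from a Poisson model. Such counts hold no spread between cells or libraries, so that run cannot show how the intervals cover it. Named pathway genes passed 1.5-fold with at least 100 UMIs and an interval leaving out 1 in HF-SC-like cells or cluster 15, and the 3 closest genes per member needed 200 UMIs. A gene that passed the naming rule is not reported here. UTRs came from an annotation on NCBIM37, and no coordinates were converted. Members and lists were chosen with earlier results of these data known.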

Additional observations from a re-analysis of the deposited data

Results flagged for a closer look

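Some log2 ratios of 1 gene lay on opposite sides of 0 in 2 populations, each with a counting interval that left out 0. These differences between populations were not tested, since each group was 1 library. For Phlda3 the ratio in cluster 11 was below 0, and the ratio exceeded it by 0.90 in IFE suprabasal-like cells, 1.10 in dermal fibroblast-like cells, 0.74 in cluster 2, 0.81 in cluster 7 and 0.83 in cluster 12. For Pik3ca the ratio in cluster 2 exceeded that in dermal fibroblast-like cells by 1.24. In cluster 11 smooth muscle markers also differed, at 54.7 CPM in the control and 527 CPM in the induced library, and their part in the Phlda3 value was not tested.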

How the results depend on the processing

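No paired analysis was possible because each group was 1 library. Of 905 values recomputed for 115 results, 865 moved by less than the counting interval, 40 moved by more and none changed sign among called values. A further 36 in 15 populations fell under 20 UMIs and were not computed. The cause of these moves was not tested, except where fewer genes or cells entered by construction. In HF-SC-like cells, Phlda3 moved to -0.43 under 5% mitochondrial UMIs and, with cluster 17 alone, to 0.19, and Pik3r1 moved to 0.0067 with cluster 17 alone. Taking single clusters and combining within populations were chosen after seeing the data. The pathway list had 5 genes higher and 5 lower at a minimum of 100 UMIs and 14 lower at 1 UMI. In cluster 15 its median moved to 0.28 under 5% mitochondrial UMIs, with 4 lower, and to -0.021 at 100 UMIs, with 3 higher and 0 lower, while 17 were higher at resolution 0.4 and 23 at 1 UMI. Over all kept cells Phlda3 moved to 0.13 and Akt1 to 0.24 with median-of-ratios size factors, Frk to -0.76 as a mean over cells and Pik3r1 to 0.52 under 5% mitochondrial UMIs. Combined within all populations and within epithelial ones, Phlda3 came to 0.088 and 0.078, Frk to -0.37 and -0.35, and Pik3r1 to 0.29 and 0.33. The median of all genes shifted by over 0.1 in sebaceous gland-like cells, by 0.16 as a mean over cells and by -1.08 under 5% mitochondrial UMIs, and in inner bulge-like cells, by -0.11 under 5%. Inpp4b in HF-SC-like cells stayed between -1.06 and -0.87. Depth limited Inppl1 everywhere and Frk in the lower follicle.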
